A study of Mus musculus with 20 samples.

Results

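The 10 genes described here belong to the circadian clock and its direct outputs: Arntl, Npas2 and Clock, called the activators below, and Per1, Per2, Per3, Nr1d1, Nr1d2, Dbp and Tef, called the repressors and outputs. They were chosen by gene name on the array, with earlier results of these arrays known, in order to set the 2 arms against each other in every dose group. All 10 passed the filter on dim probes, among 20108 genes that passed of 27962 gene names on the array. The samples were whole lungs of C57BL/6BomTac female mice that had been pregnant and had nursed a litter. Each dam had received Milli Q water (control) or a dispersion of the carbon black Printex 90, a powder of nanosized carbon particles, by instillation into the trachea. There were 4 instillations per dam, of 2.75, 13.5 or 67 µg each, and they fell on days 7, 10, 15 and 18 of gestation. The total dose was thus 11 µg in the low, 54 µg in the medium and 268 µg in the high group, and 0 µg of carbon in the control group. Dams were killed after weaning, 26 to 27 days after exposure, and 5 dams per group were measured on 1 array each. The animals were kept under 12 hours of light from 6 a.m. No source used here gives the hour at which each lung was taken.

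The mammalian clock is a feedback loop. ARNTL (also called BMAL1) pairs with CLOCK or with its relative NPAS2, and the pair switches on genes that carry E-box sequences. Among those are the Per genes, whose products with the CRY proteins shut the pair off again, and Nr1d1 and Nr1d2, which encode the REV-ERB receptors that repress Arntl. DBP and TEF are transcription factors of the PAR bZIP family, which bind D-box sequences and pass the rhythm on to other genes. In lung, as in other peripheral tissues, Arntl transcript is at its peak at about the opposite time of day to the transcripts of Nr1d1, Dbp and Per genes.

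Letters that match sequence elements of the loop stand in front of several of the 10 genes. RefSeq promoter windows on mouse build GRCm38.p6 were available for 9 of the 10 members, in 14 windows, and the 250 bases before each transcript start were searched on both strands. Per2 had no window. The E-box CACGTG was found in front of Per1 and Tef, and in 6.02% of all 32851 mouse windows. The related E'-box CACGTT was found in front of Nr1d1 and in 3.85% of all windows. The D-box, searched as TTATGTAA or TTACGTAA, occurred at 2 places in front of Per3 and in 0.931% of all windows. For the element that REV-ERB receptors and their ROR counterparts bind, only the fixed string AAAGTAGGT was searched. It was found in front of 1 Arntl start and in 0.164% of all windows. Other forms of the element were not searched, so the low share does not say how common the element is. The 4 motifs share no stretch in these windows. Printed 5′ to 3′ on the gene's own strand, with the matched letters in capitals, the stretches are as follows. For Nr1d1 the capitals are the E'-box read from the other strand, and for Arntl only the 30 bases next to the start are shown.
Per1 (chr11:69098699-69098948, plus strand): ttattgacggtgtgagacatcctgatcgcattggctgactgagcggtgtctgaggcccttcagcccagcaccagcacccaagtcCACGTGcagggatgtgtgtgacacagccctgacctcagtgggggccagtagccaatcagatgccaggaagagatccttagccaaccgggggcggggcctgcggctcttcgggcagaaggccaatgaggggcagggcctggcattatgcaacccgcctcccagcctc
Tef (chr15:81802423-81802672, plus strand): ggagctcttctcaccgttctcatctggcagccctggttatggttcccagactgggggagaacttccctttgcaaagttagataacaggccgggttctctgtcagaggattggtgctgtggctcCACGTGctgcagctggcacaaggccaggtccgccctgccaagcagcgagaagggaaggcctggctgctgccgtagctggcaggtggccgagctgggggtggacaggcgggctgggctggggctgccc
Nr1d1 (chr11:98775378-98775627, minus strand): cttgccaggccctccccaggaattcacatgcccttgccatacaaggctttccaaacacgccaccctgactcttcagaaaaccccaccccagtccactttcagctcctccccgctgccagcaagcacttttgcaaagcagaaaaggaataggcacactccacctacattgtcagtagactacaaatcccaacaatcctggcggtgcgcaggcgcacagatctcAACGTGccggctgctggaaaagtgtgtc
Per3 (chr4:151044666-151044915, minus strand): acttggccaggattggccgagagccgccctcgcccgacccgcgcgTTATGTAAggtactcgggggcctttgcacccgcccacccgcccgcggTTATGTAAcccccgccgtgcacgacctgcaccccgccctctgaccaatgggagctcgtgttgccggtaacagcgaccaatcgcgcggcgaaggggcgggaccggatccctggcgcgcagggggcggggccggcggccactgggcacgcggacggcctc
Arntl (chr7:113207481-113207510, plus strand): gcggggagcggattggtcggAAAGTAGGTt
A match is a description of the letters. The matches are given by gene and the shares by window, and no excess over all windows was tested. Binding was not measured in these samples.

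Each array set the lung RNA of 1 dam, labelled with Cy5, against 1 commercial universal reference RNA, labelled with Cy3. All values below are log2 ratios of lung over reference from the deposited table, so that 1 unit is a doubling, and they compare dams for 1 gene, never 1 gene with another. The arrays lay on 6 slides. On slides 1 to 5 the control, low and high dams always held positions 1, 2 and 4, and on slides 1 to 3 the medium dam held position 3. Position and group thus cannot be told apart on these slides. Slides 4 and 5 held no medium dam, and slide 6 held 2 medium dams. Slide entered the model as a block. Between 63.97% and 78.34% of probes were well above background in the Cy5 channel of an array. Of the lung markers listed, all 7 epithelial and all 3 endothelial genes were measured, with mean log2 ratios over the reference between 3.39 and 4.25 and between 2.80 and 3.75. Lung being a bulk tissue, fewer cells of a type and less RNA per cell cannot be told apart.

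In the lungs of dams given the high dose, all 3 activators were higher on average than in controls and all 7 repressors and outputs were lower, except that the dim gene Npas2 turned to -0.16 with the scanner software's own log ratio. The differences ran from 0.18 for Clock to 0.46 for Arntl in the first arm, and from -0.67 for Per1 to -0.30 for Per3 in the second. None of the 10 genes passed an adjusted p of 0.05, against a background of 3.13% of all genes in that comparison, and for every one of the 10 the 5 high dams overlapped the 5 controls. Across all genes the ranges of the 5 dams did not overlap in 3.51%. The median difference was 0.20 over the activators, -0.35 over the repressors and outputs, and -0.01 over all genes. As the members were chosen with this contrast in view, these values describe the 20 lungs and no test is drawn from them. Without control dam 18, 1 member (Dbp, at -0.90) passed the threshold, and the background count fell from 630 to 300 genes.

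**Figure D1:**
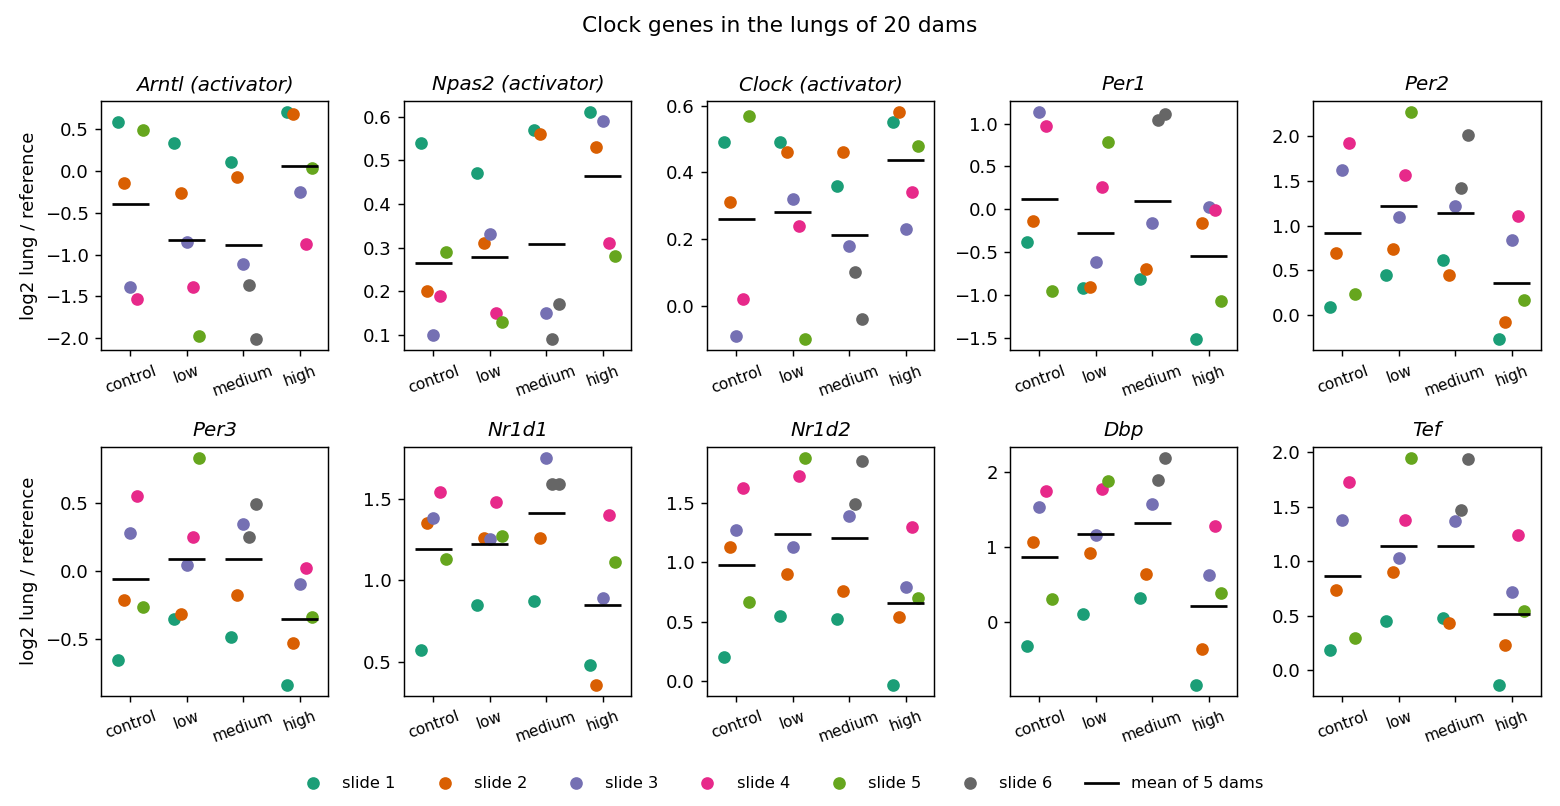
Log2 ratio of lung over reference RNA (vertical axis of each panel, scaled to its gene) for the 10 clock genes in 20 dams, by dose group (horizontal axis). Points are single dams coloured by slide and black lines are means of 5 dams. The groups overlap for every gene, while dams of slide 1 sit low and those of slides 4 and 6 high for Per2, Dbp and Tef, and the reverse for Arntl.

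Arntl, the partner that every activating pair of the loop needs, had log2 ratios of 0.58, -0.14, -1.39, -1.53 and 0.49 in control dams 4, 7, 14, 15 and 18. In the high dams 60, 62, 63, 64 and 65 it read 0.70, 0.68, -0.25, -0.87 and 0.03. The control dams alone thus covered nearly the whole span of the high dams and more, and 2 of them lay below every high dam. The difference between high and control was 0.46 ± 0.30 (SE, n = 5 per group), and the high dam was the higher one on 4 of 5 slides. Without control dam 18 the difference was 0.83, and without control dam 14 it was 0.27. The low dams spread from 0.34 to -1.97 and the medium dams from 0.11 to -2.01. Their differences from control had the other sign, -0.43 ± 0.30 and -0.28 ± 0.36. The low-dose value rested on slide 5, where low minus control was -2.46, against -0.24, -0.12, 0.53 and 0.14 on slides 1 to 4. Over 14 other settings the low-dose value ran from -0.54 to 0.08.

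Clock, the usual partner of ARNTL and a histone acetyltransferase, moved over a far smaller span. Its log2 ratio was between -0.09 and 0.57 in the 5 controls and between 0.23 and 0.58 in the 5 high dams. The difference was 0.18 ± 0.11 for the high, 0.03 ± 0.13 for the medium and 0.02 ± 0.11 for the low dose. The high-dose value was 0.30 without control dam 18, 0.11 without control dam 14 and 0.09 in the Cy5 channel alone. All 4 probes of Clock gave a positive value at the high dose, from 0.05 to 0.21. Npas2, which can stand in for CLOCK, was dim: it was well above background on 13 of 20 arrays, namely 3 control, 3 low, 2 medium and 5 high arrays. Its high-dose difference was 0.20 ± 0.07, and its 20 ratios lay within 0.51 log2 units. That difference was 0.09 in the Cy5 channel alone and -0.16 with the scanner software's log ratio.

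Per1, a repressor gene that also answers directly to hormones, read -0.38, -0.14, 1.13, 0.97 and -0.95 in control dams 4, 7, 14, 15 and 18. In the high dams 60, 62, 63, 64 and 65 it read -1.51, -0.16, 0.03, -0.01 and -1.07. The high dam was below the control of its slide on 5 of 5 slides, with differences between -1.13 and -0.02 and a mean of -0.67 ± 0.34 (-1.01 without control dam 18). Per1 was the 1 repressor with lower estimates at all 3 doses, with -0.53 ± 0.41 at the medium and -0.41 ± 0.34 at the low dose. Without the slide term the medium value was only -0.03 ± 0.47. Medium dams 49 and 50, which read 1.04 and 1.11, are alone on slide 6 and add nothing to the value of -0.53. At the low dose a single slide went the other way: dam 36 read 0.78 and control 18 beside it -0.95.

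Per2, the PER protein gene most needed for a running clock, had log2 ratios from 0.09 to 1.93 in controls, with a median of 0.69, and from -0.27 to 1.11 in high dams, with a median of 0.17. It too was lower on all 5 slides, with differences between -0.82 and -0.08, and the mean was -0.56 ± 0.27. A second Per2 probe gave -0.02 for the same comparison and varied over only 0.66 log2 units across dams, against 2.54 for the brighter probe used here. With both probes averaged the difference was -0.29. Per3, the third gene of the family, differed by -0.30 ± 0.15 at the high dose and was lower on 5 of 5 slides. Both genes had positive estimates at the low dose (0.31 ± 0.27 for Per2 and 0.15 ± 0.15 for Per3) and at the medium dose (0.10 ± 0.32 and 0.14 ± 0.18).

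Nr1d1, which encodes REV-ERBα, read 0.57, 1.35, 1.38, 1.54 and 1.13 in control dams 4, 7, 14, 15 and 18. The high dams 60, 62, 63, 64 and 65 read 0.48, 0.36, 0.89, 1.40 and 1.11. Each high dam lay below the control of its own slide, with differences between -0.99 and -0.03, and the mean was -0.35 ± 0.11 (-0.22 without high dam 62). The other 2 Nr1d1 probes gave -0.28 and -0.17, and their within-group values correlated with the probe used at r = 0.79 and r = 0.37 over 20 dams. With the probes averaged, Nr1d1 was the 1 member that passed the threshold, at -0.26 ± 0.06. In that setting 909 of all genes passed, against 630 in the reported model. Nr1d2, which encodes REV-ERBβ, differed by -0.32 ± 0.15 (-0.21 without control dam 7) and was lower on 4 of 5 slides. At the medium dose both were above control, by 0.26 ± 0.14 and 0.15 ± 0.19, and at the low dose by 0.03 ± 0.11 and 0.26 ± 0.15.

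Dbp, the output gene whose rhythm is usually the steepest, had log2 ratios of -0.32, 1.06, 1.53, 1.75 and 0.30 in control dams 4, 7, 14, 15 and 18. The high dams 60, 62, 63, 64 and 65 read -0.84, -0.37, 0.62, 1.28 and 0.38. On slides 1 to 4 the high dam was the lower one, and on slide 5 it was higher by 0.08. The mean difference was -0.65 ± 0.22, a 1.57-fold lower ratio. In the low dams Dbp ran from 0.10 to 1.88 and in the medium dams from 0.32 to 2.19, with differences from control of 0.30 ± 0.22 and 0.30 ± 0.26. Tef, a relative of Dbp, differed by -0.34 ± 0.21 at the high dose (-0.59 without control dam 18), and its 4 probes ranged from -0.34 to -0.19. Its low-dose and medium-dose values were 0.28 ± 0.21 and 0.13 ± 0.26.

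At the medium and low doses the arms did not split as they did at the high dose. In each of these comparisons 2 of 3 activators and 6 of 7 repressors and outputs had estimates above control. Several of these signs depended on the setting. Over 14 other settings the lowest low-dose values of Per2, Per3, Nr1d1, Dbp and Tef were -0.12, -0.09, -0.03, -0.01 and -0.07. At the medium dose the lowest for Per2 and Tef were -0.08 and -0.03. Of the 2 activators above control, Npas2 went down to -0.09 at the low and -0.08 at the medium dose over 13 settings. Clock went down to -0.05 at the medium dose over 14 settings, and to -0.05 at the low dose with single dams left out. Nr1d2 stayed above control at both doses. None of the 10 members was called at either dose, where the background was 0.00995% of all genes at the medium and 0.00497% at the low dose. The ranges of the 5 dams overlapped the controls for all 10 genes, against non-overlap in 3.22% and 1.49% of all genes. The median over the activators was 0.03 at the medium and 0.02 at the low dose, and over the repressors and outputs 0.14 and 0.26. Over all 10 members it was 0.12 and 0.09, beside all-gene medians of 0.00 in both. The 3 comparisons share the same 5 control dams.

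**Figure D2:**
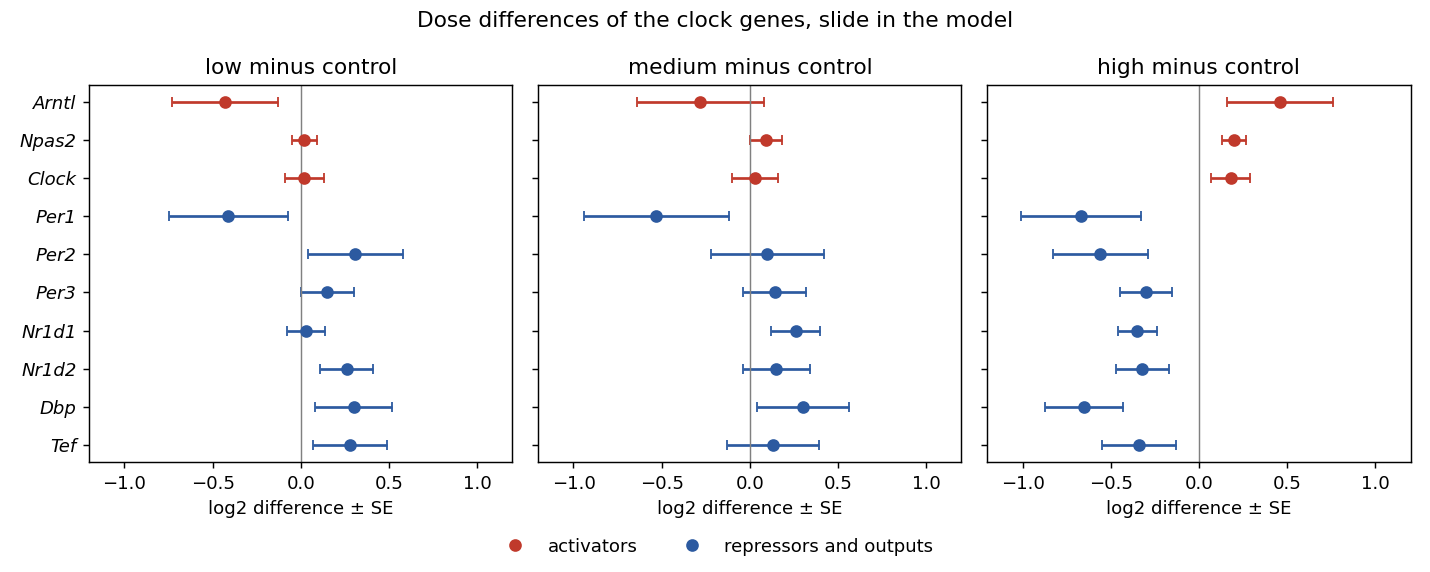
Difference in log2 ratio from control (horizontal axis, ± SE, slide in the model, 5 dams per group) for the 10 genes (vertical axis) at the low, medium and high dose. Medium dams 49 and 50, alone on slide 6, add nothing to the medium differences. At the high dose the 3 activators lie to the right of 0 and the 7 repressors and outputs to the left, from -0.67 for Per1 to 0.46 for Arntl; at the lower doses most repressors lie to the right and Per1 to the left.

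To set the arms against each other within a lung, the mean of the 7 repressors and outputs minus the mean of the 3 activators was taken in each dam and is called the arm index. It read -0.58, 0.54, 1.69, 1.88 and -0.25 in control dams 4, 7, 14, 15 and 18. In the high dams 60, 62, 63, 64 and 65 it read -1.07, -0.60, 0.35, 0.98 and -0.05. High minus control within a slide was -0.49, -1.14, -1.34 and -0.90 on slides 1 to 4, and 0.20 on slide 5. The index difference between high and control was -0.73 ± 0.37. Without control dam 18 it was -1.12, and without control dam 14 it was -0.54.

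The low dams 25, 27, 28, 31 and 36 had indices of -0.27, 0.33, 0.79, 1.54 and 2.20. Against control the low-dose difference was 0.26 ± 0.37, and it rested on slide 5, where dam 36 exceeded control 18 by 2.44. Without dam 36 it was -0.17, without control 18 it was -0.13, and without the slide 5 arrays it was -0.28. The medium dams 46, 47, 48, 49 and 50 had indices of -0.13, 0.07, 1.33, 1.69 and 2.23. Their difference from control was 0.13 ± 0.44 with slide in the model and 0.38 ± 0.62 without it, and -0.13 without control 18. Dams 49 and 50 are alone on slide 6 and so add nothing to the first of these values. The sign of the index difference at the medium and low doses thus depended on single dams.

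Between slides the index varied more than between groups. Its mean was -0.51 over the 4 dams of slide 1, 0.09 over the 4 of slide 2, 1.04 over the 4 of slide 3 and 1.47 over the 3 of slide 4. It was 0.63 over the 3 dams of slide 5 and 1.96 over the 2 of slide 6. Of the sum of squares within groups, 76.3% lay between slides. Slide 5 was the exception to this likeness of slide mates, with an SD of 1.36 over its 3 dams, against 0.38 to 0.59 on the other 5 slides. Slides 1 and 2 shared a scan session, as did slides 3 and 4, while slides 5 and 6 were each scanned in a session of their own. The part of the scan session in the index was not tested. Nor was that of anything else the dams of a slide shared, such as the day or hour of dissection.

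**Figure D3:**
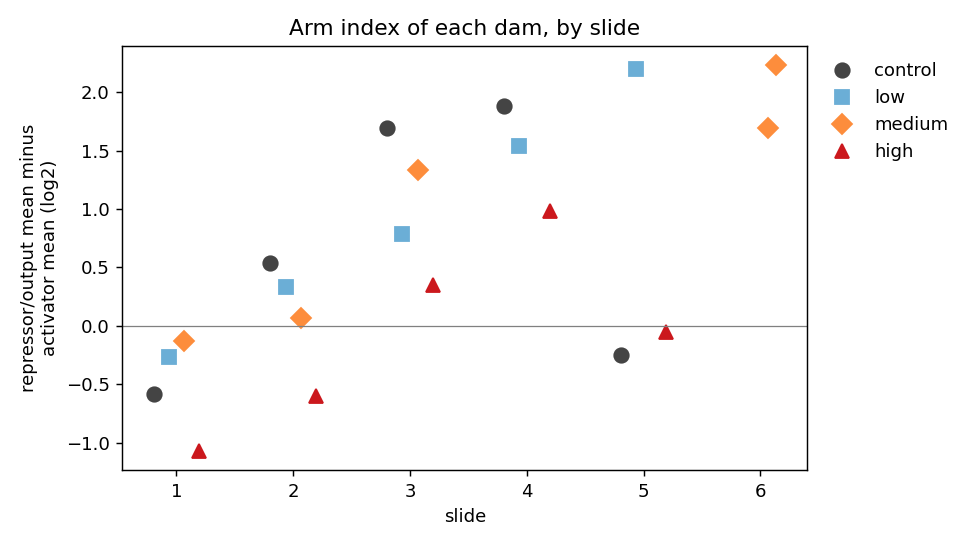
Arm index (vertical axis, mean log2 ratio of the 7 repressors and outputs minus that of the 3 activators) of each of the 20 dams, by slide (horizontal axis) and dose group (symbol). The high dam is the lowest point on slides 1 to 4, the slides differ by more than 2 log2 units in mean index, and on slide 5 the low dam stands at 2.20 beside -0.25 and -0.05.

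Taken over all dose groups, individual dams differed by several fold in most of these transcripts. From the lowest to the highest of 20 dams the ratio changed 8.14-fold for Dbp, 6.54-fold for Arntl, 6.24-fold for Per1, 5.80-fold for Per2 and 4.23-fold for Tef. Nr1d2 changed 3.76-fold, Per3 3.18-fold and Nr1d1 2.62-fold, whereas Clock changed 1.60-fold and Npas2 1.43-fold. The SD within groups was 0.88 for Arntl, 0.83 for Per1 and 0.81 for Dbp, beside a median of 0.12 over 19999 genes with a value on every array. By this SD Arntl stood at rank 64, Per1 at 75, Dbp at 80, Per2 at 124 and Tef at 187. Nr1d2 stood at 245, Per3 at 408 and Nr1d1 at 667, whereas Clock (SD 0.22) stood at 2469 and Npas2 (SD 0.18) at 4273. The spread was in the lung channel: quantile-scaled Cy5 signals of the 10 probes had SDs of 0.16 to 0.90 and the Cy3 signals of the common reference 0.06 to 0.20.

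Once the mean of each dose group had been removed, the arms ran against each other from dam to dam. All 21 pairs of an activator with a repressor or output had a negative Pearson r over the 20 dams, from -0.98 to -0.59 with a median of -0.86. Spearman's rho was between -0.97 and -0.61. All 3 pairs of activators correlated positively, with r of 0.66 to 0.94, as did all 21 pairs of repressors and outputs, with r of 0.52 to 0.98. The lowest r was that of Arntl with Per2, at -0.98 with rho of -0.97 (two-sided permutation of dams within groups, p = 1e-05, the smallest that 100000 resamples can give, and 3e-05 after Benjamini-Hochberg adjustment over 45 pairs). The highest of the 21, Clock with Nr1d1, had r = -0.59 and rho = -0.68 (permutation p = 0.0079 for r and 0.0032 for rho, adjusted 0.0082 and 0.0034). All 45 pairs had an adjusted permutation p under 0.05. The values of a pair share an array and a reference, and dams of a slide resembled each other, so the 20 points are not fully independent. The permutation moved dams between slides, so its p values make no allowance for slide. The members were also chosen as genes of the loop to set the arms against each other. The p values thus describe these pairs and give no independent support for the opposition.

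The opposition was also seen with slide removed and inside sets of slides. With both group and slide removed, all 21 pairs kept a negative r. Arntl and Per2 then had r = -0.94, Clock and Per2 -0.98, and Arntl and Tef -0.94. Of the 21 pairs 16 passed the adjusted permutation p of 0.05, and 5 did not: Arntl with Nr1d1 (r = -0.28), Clock with Nr1d1 (-0.16), and Npas2 with Per1 (-0.21), Per2 (-0.28) and Per3 (-0.28). This permutation used fewer resamples. It moved residuals between slides, although residuals of a slide are tied to each other, so its p values are approximate. Slide 5, whose 3 dams differed most in the index (SD 1.36), weighs heavily in these residuals. The values with slide removed were not recomputed without slide 5 or its low dam 36. With only group removed and the slide 5 arrays left out, a choice made after seeing the data, all 21 were negative (median -0.88). With group and slide removed Nr1d1 also stood apart within its own arm, with r of -0.21 with Per1, 0.11 with Per3 and 0.14 with Per2, whereas it kept 0.56 with Dbp. Over the 12 dams of slides 1 to 3 the 21 correlations ran from -0.98 to -0.60, and over the 8 dams of slides 4 to 6 the weakest was -0.35, that of Npas2 with Nr1d2. Leaving out the 2 dams farthest from the median of the activator left all 21 negative, from -0.98 to -0.60.

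**Figure D4:**
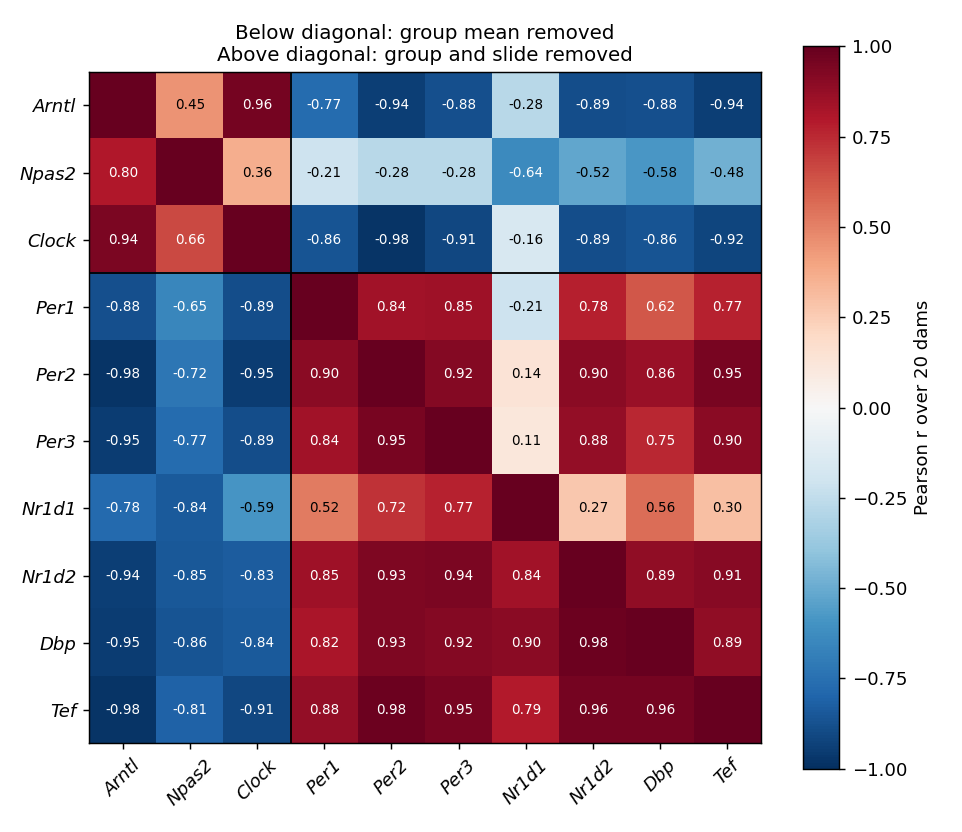
Pearson r between the log2 ratios of the 10 clock genes over 20 dams (colour scale from -1 to 1), below the diagonal with the group mean removed and above it with group and slide removed. Black lines part the 3 activators from the 7 repressors and outputs; below the diagonal the block between the arms is blue throughout, from -0.98 to -0.59, and above it the rows of Npas2 and Nr1d1 fade.

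Other genes followed the same axis. Of 19989 other genes with a value on every array, 55 had a within-group r of at least 0.8 with Arntl and 48 had one of -0.8 or below, together 0.515%. The 5 most like Arntl were Dtx4 (0.98), Spon2 (0.96), Rasl11a (0.96), Ccnjl (0.93) and Myo1e (0.93). The 3 most opposed were Tspan4 (-0.98), Hlf (-0.97) and Ankrd12 (-0.96). Dtx4 kept r = 0.95 and Tspan4 -0.95 with slide removed as well. For Dbp the 5 most alike were Ankrd12 (0.95), Zfp346 (0.93), Tspan4 (0.93), Hlf (0.92) and Sord (0.89), and the 3 most opposed were A630005I04Rik (-0.94), Spon2 (-0.94) and Rasl11a (-0.94). Hlf encodes the third PAR bZIP factor beside DBP and TEF. Spon2, an extracellular matrix protein gene, spanned 3.39 log2 units over the 20 dams, more than any of the 10 clock genes. These likenesses are descriptions over 20 dams and carry no test.

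A list of 22 further clock and clock-output genes, of which 21 were measured, followed the index in part. The group-centred mean of the list correlated with the arm index at r = 0.92 over 20 dams, 16 genes positively and 5 negatively, among them Hlf at 0.97, Cry2 at 0.85 and Nfil3, a repressor that competes at D-boxes, at -0.92. In the dose comparisons 1 of 21 passed an adjusted p of 0.05 in limma at the high dose, where 3.13% of all genes did. None passed at the medium or low dose, where 0.00995% and 0.00497% of all genes did. At an unadjusted p of 0.05, 5 of 21 passed at the high dose, where 21.0% of all genes did. The median difference at the high dose was -0.00, with 10 genes above and 11 below control. Hlf differed by -0.58 ± 0.24 (adjusted p = 0.175), Cry2, a partner of the PER proteins, by -0.23 ± 0.09 (0.160) and Csnk1e, a kinase gene of the PER proteins, by -0.17 ± 0.06 (0.139), none of them past the threshold.

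The 1 gene that passed was Fbxl21, an F-box gene whose product binds CRY proteins. It read between -0.44 and -0.03 in the 5 controls and between 0.01 and 0.16 in the 5 high dams, without overlap, a difference of 0.26 ± 0.05 (limma, adjusted p = 0.0251, higher on 5 of 5 slides). It was dim, well above background on 3 control and 4 high arrays of 5 each, and its correlation with the arm index was -0.10. The call was lost without control dam 7, 15 or 18 or without high dam 62, 63, 64 or 65, with adjusted p values from 0.0503 to 0.0694. It was also lost without the slide term (0.0823), with normexp and loess (0.212), with the 2 groups alone (0.159), with the scanner software's log ratio (0.798) and in the Cy5 channel alone, where the difference was -0.03 (0.809). The medium estimate was 0.29 ± 0.06 and did not pass (adjusted p = 0.259), and on none of the 5 medium arrays was Fbxl21 well above background. Without high dam 60, Csnk1e passed as well, while the number of all genes called rose from 630 to 1087. With its probes averaged Csnk1e differed by -0.06 (limma, adjusted p = 0.498).

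Genes induced by glucocorticoids, hormones with a daily cycle of their own, were set beside the index. Over 20 dams the mean of the 8 measured of 9 listed genes correlated with it at r = 0.82. Of the 8 genes 5 correlated positively, led by Tsc22d3 at 0.86 and Klf9 at 0.74, and 3 negatively, namely Mt1 at -0.12, Mt2 at -0.28 and Sgk1 at -0.08. None of the 8 passed at any dose in limma. At the high dose 0 of 8 had an unadjusted p under 0.05, where 21.0% of all genes did. The high-dose differences were -0.17 ± 0.10 for Errfi1, -0.16 ± 0.20 for Tsc22d3, -0.13 ± 0.22 for Klf9 and -0.08 ± 0.11 for the metallothionein gene Mt1. The mean of 11 immediate early genes, which respond within minutes to handling or stress, had r = 0.04 with the index. None of the 11 passed either at any dose. At the high dose 2 of them had an unadjusted p under 0.05, where 21.0% of all genes did. Ier3 differed by 0.22 ± 0.09, Egr2 by 0.29 ± 0.12, Junb by 0.33 ± 0.17 and Jun by -0.12 ± 0.09.

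Of markers for other tissue in a dissected lung, the liver genes Alb (Alb1 on the array) and Apoa1 had a mean correlating with the index at r = -0.52, 3 skeletal muscle genes at -0.42 and 4 heart genes at -0.32. The 1 measured of 2 brown fat genes had r = -0.48 and the 1 measured of 3 thymus genes 0.15. Over the dams the mean log2 ratio ran from 0.23 to 2.74 for liver, -1.01 to 0.17 for skeletal muscle, 1.08 to 3.37 for heart, 1.32 to 3.14 for brown fat and -0.61 to -0.29 for thymus. None of these other-tissue genes passed at any dose in limma. Of 6 measured leukocyte genes, 2 had an unadjusted p under 0.05 at the high dose, where 21.0% of all genes did. After adjustment 1 passed there, against 3.13% of all genes, and none passed at the medium or low dose. At the high dose 2 of the 6 were above control and 4 below, with a median difference of -0.10. The gene that passed was Siglecf, a marker of eosinophils and alveolar macrophages, between 2.58 and 3.04 in the 5 controls and between 1.52 and 2.22 in the 5 high dams. Its difference was -0.93 ± 0.15 (limma, adjusted p = 0.00886, lower on 5 of 5 slides), and its correlation with the arm index 0.14. The Siglecf call held with each dam left out and was lost with normexp and loess, the scanner software's log ratio, the Cy5 channel alone or the 2 groups alone, with adjusted p values of 0.205, 0.726, 0.191 and 0.072. The mean of the 6 leukocyte genes, which ran from 1.12 to 2.10, correlated with the index at 0.33. For the median Cy5 signal of the array the correlation was -0.25, and for its share of probes well above background -0.28. Their part in the index was not tested, and the correlations with the index are descriptions over 20 dams.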

How the data were processed

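Total RNA of 20 lungs was measured on 2-colour 4x44K mouse oligonucleotide arrays, lung in Cy5 and universal reference in Cy3, without dye swap, per the labels. The authors' scanner files hold the signal intensity of each spot and a log10 ratio, from Feature Extraction 9.5.1.1 on 18 arrays and 10.1.1.1 on 2, per the file headers (the labels name 9.5.3.1). The authors' deposited value table gives a log2 ratio for 43379 spots per array; no source used here says how it was normalized. Its columns correlated at r = 0.962 to 0.993 with the log2 ratio of uncorrected median signals, with column medians of -0.05 to -0.03, so its direction is lung over reference.

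Outlier spots were removed and spots of a probe averaged. Probes had to be well above background in Cy5 on at least 3 of 5 arrays of a group and to hold a value on 16 arrays, and the brightest probe stood for a gene. Differences come from limma 3.58.1 in R 4.3.3 with group and slide, and Benjamini-Hochberg adjustment over 20108 genes. The arm index was fitted by a linear model with the same terms. Scripts were tested on simulated data. Correlations used group-centred values. Each dam was a separate animal.

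The members and the gene lists were chosen with earlier results of these data known. All 10 members are named. Of the further clock, glucocorticoid and immediate early lists the 4 genes with the smallest high-dose p are named, with any that passed, and for Arntl and Dbp the 5 most and 3 least correlated genes; Nfil3, Mt2, Sgk1 and Siglecf were named outside that rule, after their values were seen, and the cell type markers are given as lists. Genes are called by the array's names, with older symbols matched for 7 of the listed genes. Zbtb16 and Ly6g were not matched. Alternatives covered the normalization, the filter, the block, the probe rule and each dam left out.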

Additional observations from a re-analysis of the deposited data

How the results depend on the processing

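No block on replicate number could be fitted, since each dam has a number of its own; the dams of a slide were compared through the slide term of the reported model. The count of members passing at the high dose was 0 in the reported model. It was 1 with the mean over the probes of a gene (Nr1d1), where 909 of all genes passed. Without the slide 5 arrays, a choice made after seeing the data, it was 1 (Dbp), where 226 of all genes passed. With each dam left out it ranged from 0 to 1. The count of further clock genes was 1. It was 0 without the slide term, with normexp and loess, with the Feature Extraction log ratio, with the Cy5 channel alone, with probes well above background on all 20 arrays, with only the 2 groups compared and without the slide 5 arrays, and ranged from 0 to 2 when each dam was left out. Both counts stayed at 0 at the medium and low doses in every setting run. Among the members' high-dose differences the 1 sign change was that of Npas2 with the Feature Extraction log ratio (-0.16, from 0.20). Fbxl21 changed sign with the Cy5 channel alone (-0.03); Mt1 did so there (0.06), with the mean over probes (0.05) and without control dam 4 (0.01). With each dam left out Tsc22d3 ranged from -0.36 to 0.03 and Klf9 from -0.38 to 0.04, both changing sign without control dam 14, and Klf9 also without control dam 15 (0.01). Mt1, Tsc22d3 and Klf9 had not passed.

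The high-dose arm index stayed negative, from -0.97 to -0.65 over 14 settings and from -1.12 to -0.54 with each dam left out. With each dam left out it ranged from -0.13 to 0.37 at the medium and from -0.17 to 0.46 at the low dose. It changed sign at the medium dose also with only the 2 groups compared (-0.13) and without the slide 5 arrays (-0.13). All 21 correlations between the arms were negative in every setting that kept the 3 activators; with probes well above background on all 20 arrays Npas2 fell out and 14 of 14 were. The number of all genes called at the high dose, 630 in the reported model, lay between 3 and 1087 over 14 settings, at 13 with normexp and loess, 5 with the Feature Extraction log ratio, 33 with the Cy5 channel alone and 3 with only the 2 groups compared, so the background share of 3.13% holds for the reported model. With 5 dams per group and the spread given above, the number of arrays limits the precision.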
